A study of Mus musculus with 7 samples.

Results

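Transcript levels of 7 CXC chemokine genes, Cxcl1, Cxcl2, Cxcl3, Cxcl5, Ppbp, Pf4 and Cxcl14, were examined in mouse tumour macrophages with and without Gpr65, a receptor that senses extracellular acid. The genes were taken by name from a count table of 53379 identifiers, and all 7 were found in it. Macrophages had been sorted by CD45, CD11b and F4/80, all positive, from MC38 tumours, a transplanted colon carcinoma line, at 21 days after implantation. The mice were C57BL/6J on a high-fat diet, 4 wild-type and 3 Gpr65 knockout, with 1 library per mouse, so both groups shared the diet and the tumour. Which tissues lacked Gpr65, how the knockout was made and the age of the mice are not given in the sources used here.

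CXC chemokines are small secreted proteins with a pair of cysteines separated by a single residue near the amino terminus. Cxcl1, Cxcl2, Cxcl3, Cxcl5 and the processed forms of Ppbp carry a glutamate-leucine-arginine (ELR) motif before these cysteines, bind the receptor Cxcr2 and attract neutrophils. Pf4 (platelet factor 4) lacks the motif and binds heparin and other glycosaminoglycans. Pf4 and Ppbp are stored in platelet granules, and Pf4 is also made by macrophages. Cxcl14 has no ELR motif and is a chemokine of epithelia, fibroblasts and myeloid cells. In activated macrophages Cxcl1 and Cxcl2 are textbook targets of the transcription factor NF-kB.

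Of the 7 genes, 6 lie within 146579 bases of chromosome 5 on the plus strand, ordered Cxcl5, Ppbp, Pf4, Cxcl3, Cxcl1 and Cxcl2, while Cxcl14 lies on chromosome 13 (56288643 to 56296551, minus strand, GRCm38). Ppbp (90768518 to 90770063) and Pf4 (90772435 to 90773383) are separated by 2371 bases, and Cxcl1 (90891241 to 90893115) and Cxcl2 (90903871 to 90905938) by 10755 bases. Cxcl3 spans 90786103 to 90789600 and Cxcl5 spans 90759360 to 90761624.

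Promoter windows were found for 6 of the 7 genes in RefSeq (build GRCm38.p6), each from 250 bases before to 50 bases after the annotated start, and Cxcl5 had no entry. The NF-kB consensus, searched on both strands, matched in Cxcl1, Cxcl2 and Cxcl3 and not in Ppbp, Pf4 or Cxcl14. It matched 8.46% of all 32851 windows. In each of the 3 genes the matches of both strands overlapped and made the same 11 bases, which occurred in 0.0426% of windows. The 80-base stretches around these 11 bases are shown 5′ to 3′, with the 11 bases that the 3 ligands share in capitals. Aligned at these bases without gaps, the stretches were 36.2% to 43.8% identical between pairs, the 11 bases included. The first match begins at position -71 in Cxcl1, -97 in Cxcl2 and -73 in Cxcl3, counted from the RefSeq start.
Cxcl1, chr5:90891155-90891234, plus strand: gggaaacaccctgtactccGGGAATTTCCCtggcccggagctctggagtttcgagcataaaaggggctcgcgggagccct
Cxcl2, chr5:90903783-90903862, plus strand: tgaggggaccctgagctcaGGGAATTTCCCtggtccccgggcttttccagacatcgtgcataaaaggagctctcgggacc
Cxcl3, chr5:90786009-90786088, plus strand: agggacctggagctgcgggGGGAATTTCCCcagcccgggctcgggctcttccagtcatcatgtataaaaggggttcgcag

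The last 60 bases before the start of the neighbours Ppbp and Pf4 are shown for contrast, with TATAAA in capitals. This motif matched at positions -30 and -8 in Ppbp and at -30 in Cxcl3, not in the other windows, and in 13.6% of all windows. GATAAG, a motif of GATA factors, matched none of the 6 windows and 7.44% of all. TGANTCA, a pattern broader than the AP-1 motif, matched Ppbp only (as TGAATCA), and 7.81% of all. A match describes letters in a window and no binding was measured.
Ppbp, chr5:90768458-90768517, plus strand: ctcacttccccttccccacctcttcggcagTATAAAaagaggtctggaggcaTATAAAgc
Pf4, chr5:90772375-90772434, plus strand: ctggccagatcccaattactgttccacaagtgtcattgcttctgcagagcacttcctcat

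The libraries held 22449772 to 30483733 counts and 18276 to 23163 genes with a count, with the fewest genes in knockout 1. Gpr65 measured 65.2 to 112 CPM (counts per 1e6, scaled by TMM factors) in wild-type and 0.683 to 1.10 CPM in knockout mice, as the labels state. The macrophage markers of the sort were abundant in all libraries, with Adgre1, which encodes F4/80, at 327 to 1332 CPM and Itgam, which encodes CD11b, at 121 to 293 CPM. In bulk libraries fewer cells of a type and less RNA per cell cannot be told apart.

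Pf4 and Cxcl2 were the most abundant of the 7 genes, Cxcl14 was intermediate, and Cxcl1, Cxcl3, Ppbp and Cxcl5 were low. Levels of different genes were compared per length, as CPM per kilobase (kb) of exon. The median over 7 libraries was 255 CPM per kb for Pf4, 147 for Cxcl2, 32.5 for Cxcl14, 5.97 for Cxcl1, 1.23 for Cxcl3, 0.674 for Ppbp and 0 for Cxcl5. Cxcl2 lay above Cxcl14 and Cxcl14 above Cxcl1 in 7 of 7 libraries (two-sided exact paired permutation p = 0.0156 each, adjusted p = 0.0391 over 5 neighbouring pairs, n = 7), where 0.0156 is the smallest p possible. Pf4 exceeded Cxcl2 in 6 of 7 libraries, by a median of 1.39-fold (exact paired permutation p = 0.0312, adjusted p = 0.0521). With the length of the longest transcript, which is shorter for Pf4, it did so in 7 of 7 (adjusted p = 0.026). For Cxcl1, Cxcl2 and Cxcl3 both lengths equal the whole span of the gene or nearly so, and leave out no intron. A shorter spliced length would raise their level per length. Cxcl14 exceeded Cxcl1 by as little as 1.72-fold, so a shorter Cxcl1 length could reverse their order in the library with that fold. In CPM without length the median was 304 for Cxcl2 and 184 for Pf4, so the order of Pf4 and Cxcl2 depends on the length used. Cxcl1 exceeded Cxcl3 in 4 of 7 libraries (exact paired permutation p = 0.25) and Cxcl3 exceeded Ppbp in 5 of 7 (exact paired permutation p = 0.172), so their order was not larger than the spread between mice.

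**Figure D1:**
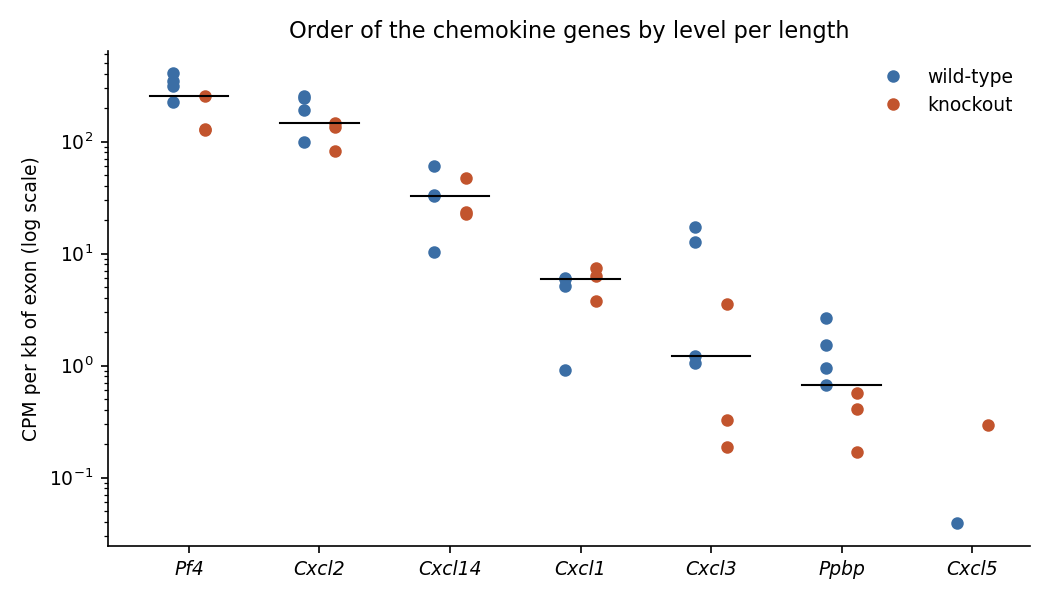
Level of each chemokine gene in CPM per kb of exon on a log axis, ordered by the median of 7 mice. Points are single mice and black lines medians. Cxcl5 had 0 counts in 5 libraries, which a log axis cannot show. The medians run from 255 CPM per kb for Pf4 to 0.674 for Ppbp.

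Cxcl2 supplied most of the counts of the neutrophil-attracting (ELR) ligands in every mouse, between 88.1% and 96.1% of their summed CPM. These shares are not corrected for length. Cxcl2 measured 204, 511, 394 and 525 CPM in wild-type mice 1 to 4, and 280, 171 and 304 CPM in knockout mice 1 to 3. Wild-type 2, 3 and 4 lay above every knockout mouse, whereas wild-type 1 lay inside the knockout range, so the groups overlapped. The means were 409 ± 148 CPM (SD, n = 4) and 252 ± 70.8 CPM (SD, n = 3).

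Cxcl1 was far lower than its neighbour Cxcl2 in these cells. It measured 1.71, 11.2, 11.4 and 9.65 CPM in wild-type and 13.8, 7.04 and 11.9 CPM in knockout mice. The 3 knockout mice lay among or near wild-type 2 to 4, and wild-type 1 was low, with 41 counts. Per length, the Cxcl2 level was 18.4 to 108 times that of Cxcl1.

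Cxcl3 varied more between mice than any other of the 6 tested members, 92.8-fold from the lowest to the highest. Wild-type mice 1 to 4 gave 3.66, 44.3, 4.31 and 60.4 CPM, and knockout mice 1 to 3 gave 12.3, 0.651 and 1.14 CPM. Wild-type 2 and 4 were high, and knockout 1 lay above wild-type 1 and 3, so the groups overlapped. The share of Cxcl3 in the summed CPM of the ELR ligands, not corrected for length, ran from 0.359% in knockout 3 to 10.1% in wild-type 4. Of the 50-base words of Cxcl2 transcripts, 5.84% also occur in Cxcl3. Of those of Cxcl3, 4.24% occur in other genes, Cxcl2 among them. A lone read of 50 bases from such a word cannot be assigned to a single gene. Longer or paired reads were not examined.

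Cxcl5 was absent or nearly so. It had 16 counts in knockout 1 (0.547 CPM, exact Poisson 95% interval 0.312 to 0.888), 2 counts in wild-type 4 and 0 in the other 5 libraries, where a count of 0 allows up to 0.0995 to 0.125 CPM (3 counts per library). These intervals and limits cover counting error only. Cxcl5 did not pass the filter on low counts and was not tested.

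Ppbp, the precursor of the neutrophil-activating platelet protein, was present at 5 to 69 counts per library. It measured 2.87, 1.66, 0.730 and 1.02 CPM in wild-type and 0.615, 0.447 and 0.184 CPM in knockout mice. Each wild-type mouse lay above each knockout mouse. The gap between the groups was small against counting error, since wild-type 3 had an exact Poisson 95% interval of 0.457 to 1.11 CPM and knockout 1 of 0.364 to 0.972 CPM.

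Pf4 measured 293, 248, 163 and 226 CPM in wild-type and 184, 93.1 and 91.3 CPM in knockout mice. Knockout 2 and 3 lay below all wild-type mice, and knockout 1 lay above wild-type 3. The means were 232 ± 54.2 CPM (SD, n = 4) and 123 ± 53.1 CPM (SD, n = 3), so the knockout mean was 52.8% of the wild-type mean.

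Cxcl14 measured 110, 18.8, 59.4 and 61.0 CPM in wild-type and 86.8, 43.3 and 41.2 CPM in knockout mice. All 3 knockout mice lay inside the wild-type range, whose ends were wild-type 2 and wild-type 1.

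**Figure D2:**
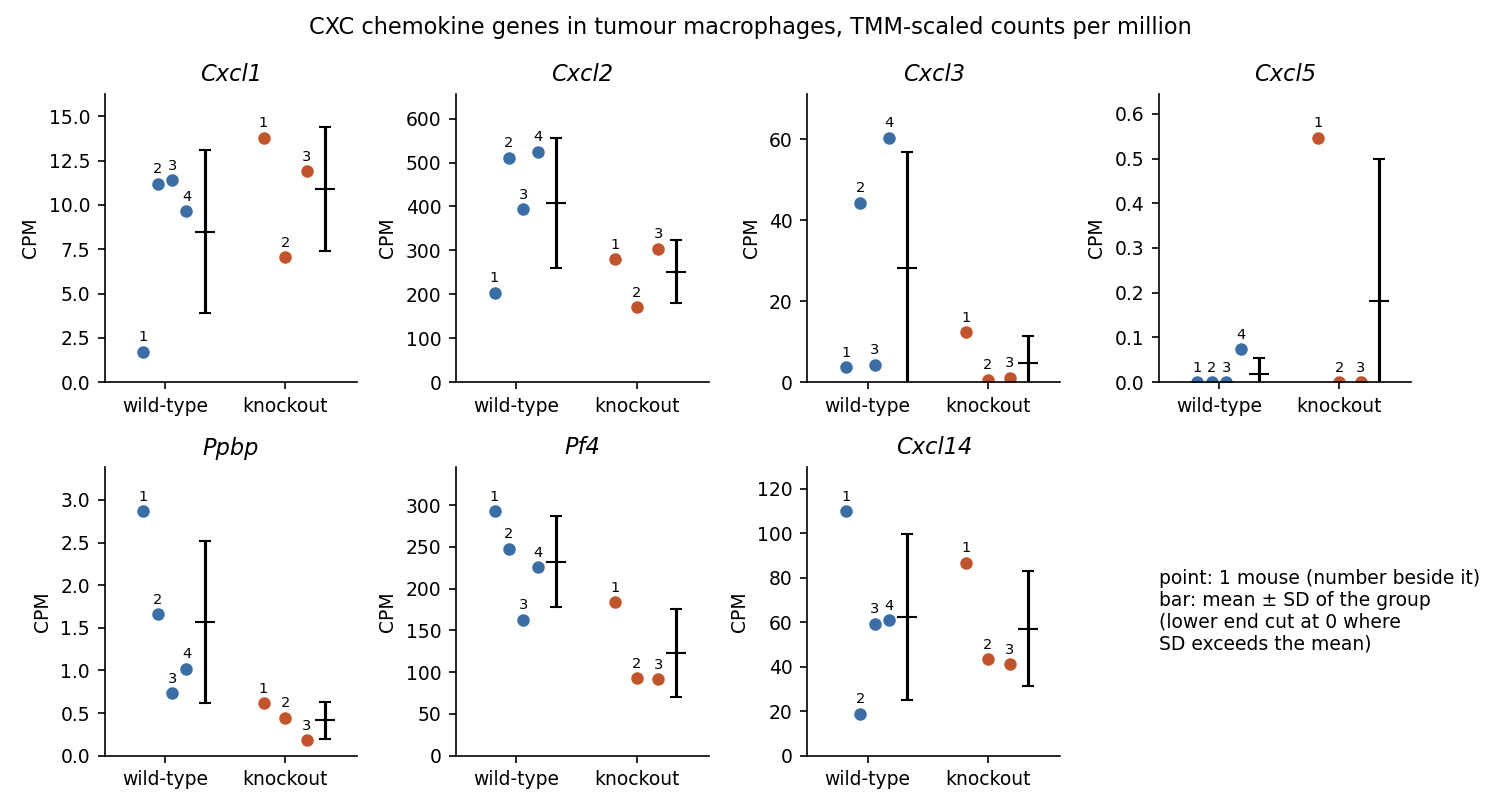
CPM of each chemokine gene in each mouse, with the mouse number beside each point and the mean ± SD of the group at its right. Axes start at 0 and differ between genes. Ppbp is the gene whose groups do not overlap, and Cxcl3 is high in wild-type 2 and 4 (44.3 and 60.4 CPM).

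None of the 6 tested members differed between genotypes at an adjusted p under 0.05. DESeq2, which called 114 of 16199 genes (0.704%, with 0.265% higher and 0.438% lower in knockout), and limma voom (10 genes, 0.0616%) also called 0 of the 6. Over all genes edgeR called 6 of 16234 (0.037%). The log2 fold change, knockout minus wild-type, was -0.92 for Pf4 (SE 0.30, 95% interval -1.60 to -0.24, edgeR adjusted p = 0.81) and -1.90 for Ppbp (SE 0.73, interval -3.57 to -0.24, adjusted p = 0.92). In this edgeR fit these were the 2 members with an unadjusted p under 0.05 (0.0139 and 0.0293). That threshold was passed by 2.79% of all tested genes in the same direction. For Pf4 the unadjusted p was 0.0557 without knockout 2 and 0.0562 without knockout 3, and for Ppbp it was 0.0971 when wild-type 1 was left out, 0.0502 for wild-type 2, 0.0607 for knockout 2 and 0.0835 for knockout 3. The full range of edgeR p with single libraries left out was 0.000489 to 0.0562 for Pf4. It was 0.00834 to 0.219 for Cxcl2 and 0.0171 to 0.183 for Cxcl3, with no adjusted p under 0.05. Groups did not overlap for Ppbp alone among the 6, as was the case for 3.33% of all tested genes in that direction.

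Cxcl2 had a log2 fold change of -0.70 (SE 0.34, interval -1.47 to 0.08, edgeR adjusted p = 0.98) and Cxcl3 of -2.58 (SE 1.29, interval -5.51 to 0.35, adjusted p = 0.98). Without knockout 1 the Cxcl3 value was -4.98 (adjusted p = 0.37), and without wild-type 4 it was -1.92. Cxcl1 had 0.36 (SE 0.55, interval -0.89 to 1.62), which was 0.01 without wild-type 1, and Cxcl14 had -0.13 (SE 0.51, interval -1.28 to 1.03), each with an edgeR adjusted p of 1. The two-sided exact permutation p over the 35 assignments of 7 libraries to groups of 4 and 3 was 0.0571 for Ppbp, 0.0857 for Pf4, 0.171 for Cxcl3, 0.2 for Cxcl2, 0.657 for Cxcl1 and 0.971 for Cxcl14, with 0.0286 the smallest possible. The median fold change of all tested genes was -0.002.

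**Figure D3:**
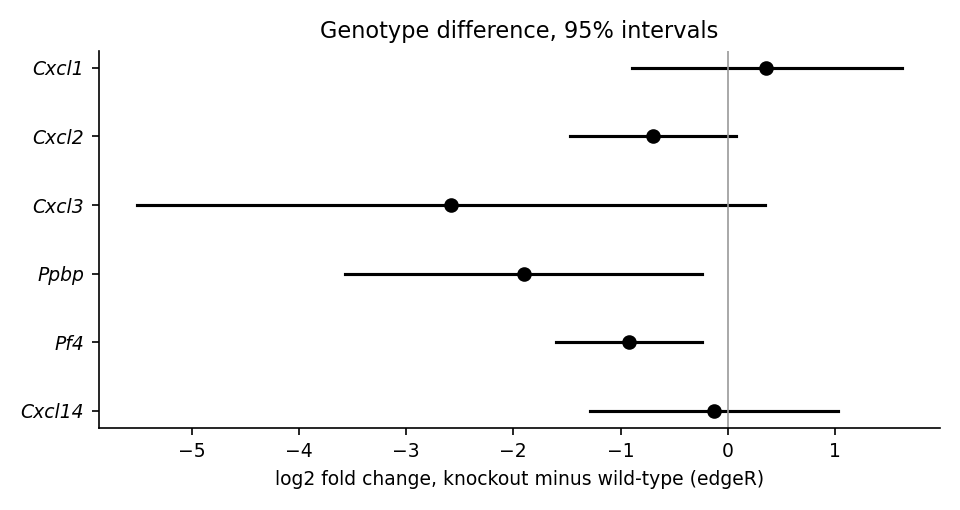
Fitted log2 fold change (knockout minus wild-type) of the 6 tested chemokine genes with 95% intervals, for 4 wild-type and 3 knockout mice. The intervals of Pf4 and Ppbp end at -0.24, those of the other 4 genes include 0, and no gene passed the adjusted threshold.

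The spread between mice was wide for several members compared with genes of like level. The biological coefficient of variation within groups was 99.9% for Cxcl3, against a median of 26.5% in the 500 tested genes nearest in level (percentile 99.2). It was 46.5% for Cxcl14 (percentile 98.0 of its like genes), 52.3% for Cxcl1 (percentile 92.2), 32.5% for Cxcl2 (percentile 87.8) and 28.9% for Pf4 (percentile 83.8). Ppbp, at 63.2%, varied like other genes of its low level (percentile 41.2).

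Ppbp and Pf4 moved together from mouse to mouse. Pearson's r of log2 CPM was 0.92 (exact permutation p = 0.00238, adjusted p = 0.0357 over 15 pairs, n = 7) and Spearman's rho 0.96 (exact permutation p = 0.00278, adjusted p = 0.0417). Without knockout 3 and wild-type 1, the libraries farthest from the median of Ppbp, r was 0.87. Without knockout 1 it was 0.95, and for deviations from the group means it was 0.80. Per length Pf4 was 153 to 746 times as abundant as Ppbp. The other 14 pairs did not pass. Cxcl2 and Cxcl3 had r = 0.81 and rho = 0.82 (exact permutation p = 0.0312 and 0.0341, adjusted p = 0.234 and 0.256), and r = 0.56 without wild-type 4 and knockout 2.

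Cxcl1 and Cxcl2, which share the 11 promoter bases shown above, had r = 0.54 and rho = 0.25 over the 7 libraries (exact permutation p = 0.226 and 0.595, adjusted p = 0.57 and 0.763). Without knockout 2 and wild-type 1 the value was -0.87, so the positive relation rests on these libraries. For deviations from the group means it was 0.92. In the ratio of the genes, per length Cxcl2 over Cxcl1 ranged from 31.3 to 108 among wild-type mice and from 18.4 to 23.2 among knockouts. These ranges do not overlap (exact permutation p = 0.0571, adjusted p = 0.257 over 9 sums and ratios, which were chosen after values had been seen).

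**Figure D4:**
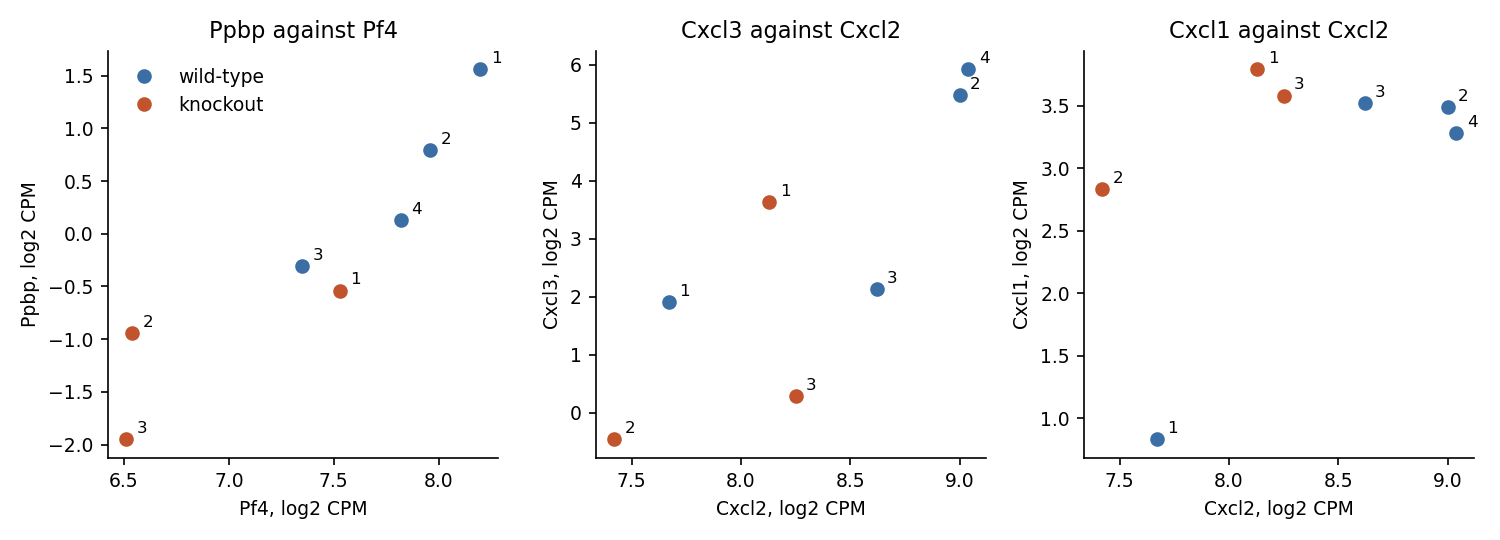
Log2 CPM of Ppbp against Pf4, Cxcl3 against Cxcl2 and Cxcl1 against Cxcl2, 1 point per mouse with its number. Ppbp and Pf4 rise together across both groups (r = 0.92). In the plot of Cxcl1 against Cxcl2 the low mice are wild-type 1 and knockout 2.

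Genes with the most similar profiles over the 7 libraries were taken from 10320 tested protein-coding genes by Pearson's r of log2 CPM, as a description without a test, since the highest of so many values is high by selection. The profile of Cxcl3 was matched most closely by Ltb4r1, the receptor for leukotriene B4, with r = 0.994 and the same order of mice (rho = 1.00). Ltb4r1 measured 27.9, 87.0, 30.5 and 128 CPM in wild-type and 50.6, 12.9 and 19.0 CPM in knockout mice. As with Cxcl3, wild-type 4 and 2 were highest, knockout 1 next, and knockout 2 lowest. S100a10 (r = 0.993) and Cdh1, which encodes E-cadherin (r = 0.982), came next, and Cdh1 ran from 37.6 CPM in knockout 2 to 437 CPM in wild-type 4.

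Cxcl14 was matched by Aurkb, a kinase of mitosis (r = 0.992), Fignl1, a gene of DNA repair (r = 0.991), and E2f8, a transcription factor of the cell cycle (r = 0.988). Aurkb measured 83.7, 28.8, 59.6 and 64.4 CPM in wild-type and 82.5, 48.3 and 48.9 CPM in knockout mice. Both Cxcl14 and Aurkb were lowest in wild-type 2 and highest in wild-type 1.

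Ppbp was matched by the monocyte chemokine receptor gene Ccr2 (r = 0.974, rho = 1.00), Tarbp1 (r = 0.942) and Pja1 (r = 0.940), and Pja1 was also the closest to Pf4 (r = 0.977). Ccr2 measured 871, 792, 621 and 625 CPM in wild-type and 489, 428 and 294 CPM in knockout mice. The order of mice was the same as for Ppbp, from wild-type 1 down to knockout 3. Its log2 fold change of -0.85 (SE 0.23) did not pass (edgeR adjusted p = 0.73), but DESeq2 called it. Pf4 was further matched by Pop5 (r = 0.964) and S100a9 (r = 0.964), the latter at no more than 13.1 CPM.

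The closest genes to Cxcl2 were Baiap2 (r = 0.966), Lrrc42 (r = 0.952) and Cd44, a receptor for hyaluronan (r = 0.947, 200 to 331 CPM). Those closest to Cxcl1 were Col11a2 (r = 0.945), Hspbap1 (r = 0.943) and Sdccag8 (r = 0.933), whose rank orders were less alike (rho = 0.82, 0.75 and 0.36). With wild-type 1 the lowest library of all 3, these values lean on 1 mouse.

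**Figure D5:**
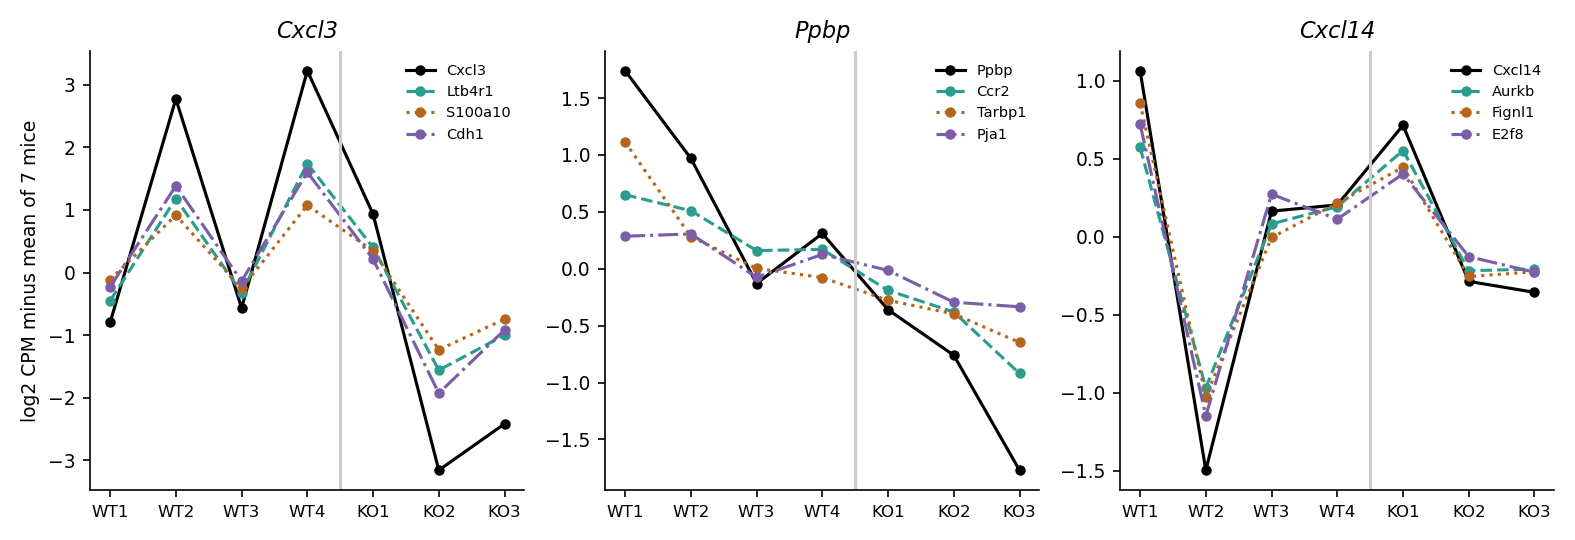
Log2 CPM minus the mean of the 7 mice for Cxcl3, Ppbp and Cxcl14 (black) and the 3 genes most like each, where WT and KO with a number are single mice. Lines join mice only to guide the eye. Cxcl3 and Ltb4r1 share peaks in wild-type 2 and 4, and Cxcl14 and Aurkb share the low value of wild-type 2.

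Transcripts of the receptors for these ligands were examined from a list of 6. Cxcr2, the receptor of the ELR ligands, measured 0.957, 16.2, 0.398 and 3.29 CPM in wild-type and 7.21, 0 and 0.368 CPM in knockout mice, high in the mice where Cxcl3 was high. Cxcr1 was at most 0.232 CPM. Of 4 tested receptors 2 had positive and 2 negative fold changes, and none passed (2 positive and 1 negative had an unadjusted p under 0.05, against 2.57% of all genes higher and 2.79% lower). Cxcr4, the most abundant, measured 75.4 CPM on average in wild-type and 208 CPM in knockout mice (log2 fold change 1.46, SE 0.34, edgeR adjusted p = 0.66), and DESeq2, whose calls over all genes are given above, called it higher. Cxcr3, whose human counterpart has been reported to bind PF4, averaged 6.20 and 22.8 CPM (adjusted p = 0.90).

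The other CXC ligands had positive fold changes for 4 of 4 tested members of a list of 8 (median 0.76), and none passed. An unadjusted p under 0.05 was found for 2, against 2.57% of all tested genes in that direction. Cxcl16 averaged 893 and 1129 CPM and Cxcl10 233 and 395 CPM in wild-type and knockout mice. Cxcl15, which lies in the same chromosome 5 cluster, had 0 counts.

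Cytokines that induce ELR ligands or act with them on neutrophils had 1 positive and 6 negative fold changes among 7 tested of 11 (median -0.70). None passed. The positive member was Tnf, an inducer of these ligands, which was the only one with an unadjusted p under 0.05 (28.2 to 38.4 CPM in wild-type, 40.7 to 57.4 CPM in knockouts, log2 fold change 0.64, edgeR adjusted p = 0.75). Il1b, an inducer of Cxcl1 and Cxcl2, averaged 2316 and 2110 CPM and Osm 601 and 542 CPM. The NF-kB subunits and feedback regulators had positive fold changes for 11 of 11 members (median 0.24), none of which passed even unadjusted. Nfkbia, the inhibitor of NF-kB, averaged 399 and 458 CPM and Nfkbiz 226 and 377 CPM. Among 8 factors that control decay of short-lived mRNAs, 5 were positive and 3 negative (median 0.11), none of them under 0.05 unadjusted, with Zfp36 at 1879 and 2209 CPM and Zfp36l2 at 452 and 475 CPM.

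Other genes of neutrophil attraction had 3 positive and 8 negative fold changes among 11 (median -0.34), with no call by edgeR and an unadjusted p under 0.05 for Ccl3 and Anxa1. C5ar1, the complement receptor, averaged 489 and 420 CPM and Anxa1, an inhibitor of neutrophil entry, 315 and 157 CPM. DESeq2 called Anxa1 lower and the chemokine gene Ccl3 higher, 2 of 11 against 0.704% of all genes. Ccl3 ran from 51.6 to 83.7 CPM among wild-type mice and from 150 to 219 CPM among knockouts (log2 fold change 1.52, SE 0.22, edgeR adjusted p = 0.14). Proteoglycans and other partners that bind Pf4 or related ligands had 1 positive and 7 negative among 8 (median -0.48), with no call by edgeR and an unadjusted p under 0.05 for Sdc1 and Itgb3. At that threshold 2.79% of all tested genes were lower. DESeq2 called the syndecan gene Sdc1 lower, as it did 0.438% of all genes. Srgn, the core protein that holds Pf4 in platelet granules, averaged 1109 and 991 CPM and the receptor Lrp1 899 and 603 CPM. Immediate early and heat shock genes, which tissue dissociation can raise together with Cxcl1 and Cxcl2, had 7 positive and 6 negative among 13 tested of 14 (median 0.03), none of them under 0.05 unadjusted, and Jund had 0 counts. Why Jund, Cxcl15, Treml1 and Ly6g had 0 counts was not tested, and 0 counts need not mean that the transcript was absent. limma voom called no gene of any list. Fos averaged 4942 and 5375 CPM and Junb 2957 and 3115 CPM.

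Platelet markers were present at levels between 0 and 14.8 CPM. Treml1 had 0 counts in all libraries, and Itga2b, Gp9 and Gp5 were at most 1.76, 0.993 and 0.717 CPM, whereas Itgb3 reached 14.8 CPM and Vwf 8.49 CPM. Pf4 measured 91.3 to 293 CPM and Ppbp 0.184 to 2.87 CPM, the latter at the level of these markers. The 13 platelet and megakaryocyte markers summed to 8.49 to 25.5 CPM in wild-type and 3.42 to 12.1 CPM in knockout mice. Most of the sum came from Itgb3 and Vwf except in knockout 1. There Vwf measured 1.13, Gp1bb 0.854, Gp5 0.717 and Itgb3 0.547 CPM. Of 5 tested, 4 had negative fold changes, and none passed. Vwf and Itgb3 had an unadjusted p under 0.05, as did 2.79% of all tested genes in that direction. Itga2b was the positive one (1.52), while Itgb3 had -1.93, Clec1b -1.55 and Vwf -1.48, in the direction of Ppbp and Pf4. The part of platelets in the results for Ppbp and Pf4 was not tested.

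Neutrophil markers did not all follow the same mice. Ly6g had 0 counts in all libraries, Ngp, Camp, Elane and Mpo had at most 7 counts each over all libraries, and S100a8 measured 4.37, 15.0, 1.46 and 10.6 CPM in wild-type and 6.49, 0.0407 and 0.404 CPM in knockout mice. The 15 neutrophil markers summed to 154 to 368 CPM in wild-type and 124 to 229 CPM in knockout mice, mostly from Csf3r and Il1r2, and 9 of 10 tested had negative fold changes and 1, Csf3r, a positive one (0.75). Csf3r was highest in knockout 2 (181 CPM) and 3 (133 CPM), where Cxcl3 was lowest, whereas S100a8 and Mmp8 were highest in wild-type 2 and 4, where Cxcl3 was highest. Of the 9 negative markers, 4 were under 0.05 unadjusted, against 2.79% of all tested genes lower at that threshold. None passed in edgeR. DESeq2 called Retnlg lower, as it did 0.438% of all genes. The part of neutrophils in the Cxcl3 values was not tested.

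Monocyte markers had negative fold changes in all 8 members (median -0.75), and 2 were under 0.05 unadjusted. Mice of the groups overlapped for several members. Plac8 was highest in knockout 1 (37.5 CPM), and Ly6c2 in knockout 2 (63.1 CPM) lay above wild-type 1, 3 and 4. Over all tested genes 2.79% were lower with an unadjusted p under 0.05. No monocyte marker passed in edgeR, and DESeq2 called Ccr2 lower, as it did 0.438% of all genes. The sum of the 8 was 887 to 4259 CPM in wild-type and 387 to 828 CPM in knockout mice. Chil3 supplied most of it in wild-type 2 (3241 CPM). Resident macrophage markers had 7 negative of 8 tested of 10, 2 of them under 0.05 unadjusted and none passing, with sums of 510 to 2051 and 557 to 1227 CPM. Their part in the results for Pf4 and Ppbp was not tested.

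Transcripts from the lists of tumour, stroma and vessel markers were present in every library. The MC38 and epithelial list summed to 126 to 451 CPM in wild-type and 42.2 to 168 CPM in knockout mice, nearly all of it Cdh1. Epcam was at most 5.30 CPM, and Krt19 and Krt20 at most 0.731 and 0.0407 CPM. All 3 tested members were negative, 2 of them under 0.05 unadjusted, and none passed. Of all tested genes 2.79% were lower at that threshold, and DESeq2 called 0.438% lower. Fibroblast markers summed to 126 to 333 and 51.8 to 302 CPM, mostly Col3a1 (7 of 9 tested negative, 1 under 0.05 unadjusted, Pdgfrb called lower by DESeq2), and endothelial markers to 31.9 to 165 and 32.7 to 58.3 CPM (2 of 3 tested negative), with none passing in edgeR. Macrophage markers had 10 positive of 11 and none under 0.05 unadjusted, with sums of 24017 to 28945 and 23325 to 46540 CPM. For Cxcl14, which fibroblasts and epithelia also make, the part of these cells was not tested.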

How the data were processed

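Counts per gene were deposited by the authors as whole numbers without normalization, 1 column per mouse. Per the submitters' processing notes, the tools were BWA 0.7.12, DESeq2 1.24.0, FastQC 0.11.5 and cutadapt 1.15, with build GRCm38 and no role stated. The sources used here do not say whether counting used strand, and no annotated gene overlaps the members.

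Genes were named by identifier from GENCODE M21 (53274 of 53379 matched). All 16234 genes left by the default filter by group were fitted with edgeR 4.0.16 (R 4.3.3), using TMM scaling, the robust quasi-likelihood F test and Benjamini-Hochberg adjustment at 0.05. Log2 CPM used a prior count of 2. Single values were compared by exact permutation. The test was checked on simulated counts. Protein sequences were not used here, so a planned description of the ELR motif was not made.

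Members and lists were chosen with earlier results of these data known. The named genes are the members, Gpr65, the 3 tested genes most like each member by Pearson's r (average log2 CPM of at least 1, no unnamed models, pseudogenes or Y-linked genes), and the 2 most abundant genes of each list where none passed. Other genes were chosen after their values were seen. Of 11 cytokine genes 10 matched by symbol. Alternatives were 3 scalings, 2 filters, DESeq2 1.42.0, limma 3.58.1 voom with library weights, edgeR without the robust step, a block for mouse number, a prior count of 0.5, the longest transcript as length, and each library left out. Whether the mice of a group came from separate litters or runs is not stated, and p-values measure only the spread between these libraries.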

Additional observations from a re-analysis of the deposited data

How the results depend on the processing

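No member passed the threshold under any of the 16 alternatives run, so the count of called members was 0 in each. For Cxcl2, Cxcl3, Ppbp and Pf4 the fold change was negative, and for Cxcl1 positive, in each of the 16, and the lowest adjusted p among them was 0.091, for Pf4 without knockout 1. Ranges over 16 alternatives were -0.94 to -0.49 for Cxcl2, -4.98 to -1.92 for Cxcl3, -2.32 to -1.47 for Ppbp, -1.35 to -0.75 for Pf4 and 0.01 to 0.69 for Cxcl1. Cxcl14 changed sign, with 0.09 under the replicate block and -0.56 to 0.29 with single libraries left out. The cause was not tested. Among all tested genes 6 were called, against 11 without a filter, 1 with the replicate block, 114 by DESeq2, 10 by limma voom, and 3 to 14 with single libraries left out (14 without knockout 1, 3 without knockout 2).

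Same-numbered mice are paired by no label. Their deviations from the group means correlated at 0.066, 0.051 and 0.088, and 4 of 6 libraries correlated best with their own number. The replicate block changed no call among the members, but none was called in the main fit, so this could not test pairing. Scaling by library totals moved the median fold change of all genes to -0.108. The order of the 7 genes per length was the same with either length. The lengths differed by more than a few bases only for Pf4 (721 and 588 bases), which ranked first with the longer one. This comparison therefore could not test the order. At 5 to 69 counts per library for Ppbp and at most 16 for Cxcl5, counting error limits both.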
